A study of Mus musculus with 6 samples.

Results

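Cadherins, protocadherins and FAT genes were followed in the lungs of mice 6 h after a blast wave to the chest. The members were all protein-coding genes of the mRNA table whose symbol begins with Cdh and a digit or with Pcdh, or is Fat1, Fat2, Fat3 or Fat4. This rule used no measured value and found 63 of the 22564 genes in the table, among them 23 cadherins, 36 protocadherins and the 4 FAT genes. The PBLI group (primary blast lung injury) held male C57BL/6 mice, 8 to 10 weeks old, that were anesthetized and received a shock wave of 0.5 bar on the chest. The Control group held mice of the same strain, sex and age that were anesthetized in the same way and received no blast. The right upper lobe was taken, lobes of 2 mice were pooled into each library, and each group had 3 libraries (6 mice). The PBLI columns are headed G3, G4 and G5 and are named so here, because the labels do not tie them to numbered PBLI samples.

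Cadherins are membrane proteins that join neighbouring cells through repeated extracellular domains that bind calcium. Classical cadherins bind the same cadherin on the next cell and reach the actin cytoskeleton through catenins, and in the lung Cdh1 (E-cadherin) is known from epithelium, Cdh5 (VE-cadherin) from endothelium and Cdh11 (OB-cadherin) from mesenchymal cells. Clustered protocadherins are encoded in 3 neighbouring arrays, alpha, beta and gamma, and give neurons a surface identity. FAT proteins are giant cadherins related to the fly gene fat, and Fat4 binds the cadherin Dchs1 in planar cell polarity.

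Expression was given as FPKM, fragments scaled to the length of the transcript and the size of the library, so levels can be compared between genes of different length. The depth was read as a relative value from genes of few fragments, where the commonest ratio between 2 libraries is that of their depths. Set to 1 in Control 1, it was 0.996 for Control 2 and 1.15 for Control 3, while the blast libraries reached 1.32 (G3), 1.24 (G4) and 1.61 (G5). The commonest ratio was held by 143 and 95 genes in Control 2 and 3 and by 45, 40 and 33 genes in G3, G4 and G5. From 2125 to 2174 genes were compared, so these depths are rough. By this estimate all PBLI libraries were deeper than all Control libraries, and the part of depth in the results was not tested. PBLI G5 stood apart from its group: its genes differed from the mean of PBLI G3 and PBLI G4 by a median of 0.25 on the log2 scale, against 0.15 to 0.19 for the other 5 libraries. The lung label was borne out by lung markers, with Sftpa1, a surfactant protein of alveolar type 2 cells, at 931 to 1399 FPKM and Ager, a marker of alveolar type 1 cells, at 424 to 546 FPKM. In bulk lung, fewer cells of a type and less RNA per cell cannot be told apart.

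Besides mRNA, the libraries held circular RNAs (circRNAs), which are read through the junction where the end of an exon is joined back to a start. The circRNA table held 4 circles from members, and both Fat3 circles coincided base for base with single exons of a RefSeq Fat3 transcript of 26 exons (GRCm38.p6, minus strand). One was exon 2, chr9:16374949-16378254, 3306 bases long, of which the first 17 lie before the start codon and 3289 are coding. The other was exon 3, chr9:16246721-16247035, 315 bases long and wholly coding. Both lengths are multiples of 3, and both exons lie between the splice letters AG and GT. The exon numbers are those of the transcript of 26 exons, while the longest coding Fat3 transcript in RefSeq has 29. The deposited type was sense overlapping for the exon 2 circle and exonic for the exon 3 circle. The junctions are given because they are the reads counted for these circles, 5′ to 3′, the last 25 bases of the exon in lower case joined to its first 25 bases in capitals.
Fat3 exon 2 circle: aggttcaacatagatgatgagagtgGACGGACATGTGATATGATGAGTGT
Fat3 exon 3 circle: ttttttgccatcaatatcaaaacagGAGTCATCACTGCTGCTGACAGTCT

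For Pcdh17, the lncRNA table listed a divergent partner whose locus ended 129 bases before the RefSeq start of the gene. That stretch, chr14:84443434-84443562 on the plus strand (RefSeq, GRCm38.p6), is given with matches to CCAAT on either strand (CCAAT or ATTGG) in capitals.
Pcdh17 upstream stretch: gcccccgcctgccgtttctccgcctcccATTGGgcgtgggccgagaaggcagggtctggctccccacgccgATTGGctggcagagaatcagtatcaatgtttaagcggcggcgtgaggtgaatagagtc
It held 2 matches, both ATTGG, beginning 101 and 58 bases before the start. Of 27025 promoters in the RefSeq table, 23.1% held at least 1 such match in the same stretch and 5.3% held at least 2. These are letter matches in a window and not tested sites. The members' promoters were in that table for 26 of 63 genes.

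Of the 63 members, 46 reached 0.5 FPKM in at least 1 library and were tested, and the other 17 did not. Of the 46, 3 passed through Control libraries alone (Cdh22, Cdh24 and Pcdhb2) and 2 through PBLI libraries alone (Cdh26 and Pcdh20). Among those 17, Cdh8, Cdh9 and Pcdh8 were listed at 0 in every library and the others peaked at 0.428 FPKM or less (Cdh19, in Control 2). The tested members spanned mean levels from 0.214 FPKM (Cdh26) to 259 FPKM (Cdh5). After blast, 2 members fell and none rose at an adjusted p under 0.05 (limma, Benjamini-Hochberg over all 14760 genes tested). Across all genes 0.928% fell and 1.15% rose at this threshold. No member rose at an unadjusted p under 0.05 either, where 9.15% of all genes did. With PBLI G3 or PBLI G4 left out, 1 member did (7.79% and 8.80% of all genes). No member was called without Control 2 or without PBLI G3, and 1 (Fat3) was called without Control 1 or without Control 3. An unadjusted p under 0.05 with a lower level in PBLI was found for 13 members, against 10% of all genes, and for 7 and 8 without Control 1 and without Control 2 (8.07% and 6.94% of all genes). The median log2 change of the tested members was -0.35, against -0.02 over all genes, and 38 of 46 had a negative estimate, against 52.9% of all genes. In 24 of the 46 tested members every PBLI library lay below every Control library, against 14.4% of all genes tested, and in 1 every PBLI library lay above, against 13.3%. The 24 include Cdh22 and Pcdhb2, which had passed the filter through Control libraries alone. The members share reads, clusters and cell types, so these counts describe the list and are not independent trials.

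**Figure D1:**
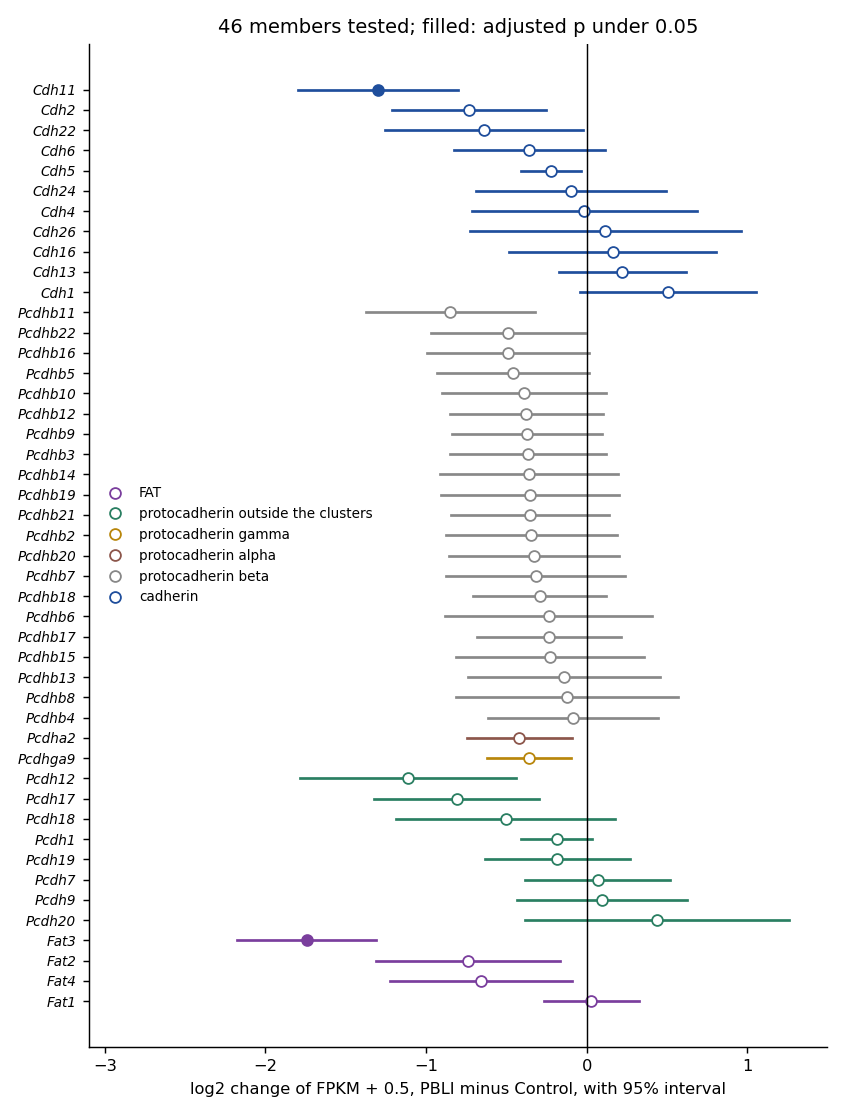
Log2 change of each of the 46 tested members (x axis, PBLI minus Control, on FPKM plus 0.5; points with 95% intervals from limma), grouped and coloured by family. The filled points, Fat3 at -1.74 and Cdh11 at -1.30, are those with an adjusted p under 0.05, and 38 of 46 points lie left of 0.

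At a fold of 2 and an unadjusted p of 0.05, the thresholds used in the study, the count depended on the scale of the fold. With the fold on FPKM + 0.5 and the limma p, 3 members were past both and lower (Fat3, Cdh11 and Pcdh12) and none were higher, where 1.17% of all genes were lower and 1.38% higher. With the plain ratio of mean FPKM and the same p, 6 were lower, Fat2, Pcdhb11 and Cdh22 being added (Cdh22 had passed the filter through Control alone), and none were higher, where 2.44% of all genes were lower and 2.01% higher.

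**Figure D2:**
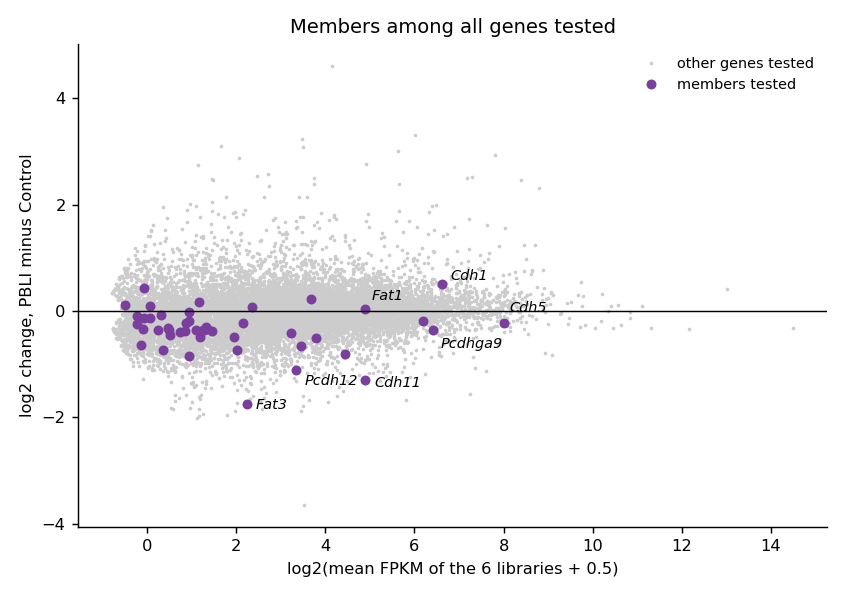
Log2 change (y axis, PBLI minus Control) against the log2 mean FPKM of the 6 libraries plus 0.5 (x axis) for all 14760 genes tested in grey and the 46 tested members in purple. The members are spread over the range of levels up to Cdh5 at 259 FPKM, and most lie below 0.

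The FAT genes carried the largest change of the members. Their coding sequences are 13056 to 14946 bases long in RefSeq, against 2196 to 10086 bases for the 23 cadherins, and they lie on chromosomes 3, 8, 9 and 11. Fat3 (chr9:15910189-16502681, minus strand), a giant cadherin known from neurons of the retina, was at 8.30, 6.40 and 5.62 FPKM in the Control libraries and at 1.74, 1.66 and 1.55 FPKM in the PBLI libraries. The groups did not overlap, and the PBLI libraries were close to each other. Its mean fell from 6.77 ± 1.37 to 1.65 ± 0.0971 FPKM (SD, n = 3 each), a log2 change of -1.74 (SE 0.19, limma adjusted p = 0.0108). The call was lost without Control 2 (limma adjusted p = 0.0825) and without PBLI G3 (limma adjusted p = 0.0540), with log2 changes of -1.77 in both cases. Over all genes, 137 fell with all libraries, 0 without Control 2 and 3 without PBLI G3.

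Fat4, the partner of Dchs1, was at 12.7, 14.1 and 11.6 FPKM in Control and at 9.02, 10.5 and 5.15 FPKM in PBLI. Every PBLI library lay below every Control library, lowest in PBLI G5, but the change missed the threshold (log2 change -0.66, SE 0.24, limma adjusted p = 0.207), and without PBLI G5 it was -0.37. Fat2, known from cerebellar granule cells, was low, at 1.40, 0.966 and 0.935 FPKM in Control and at 0.572, 0.545 and 0.267 FPKM in PBLI (log2 change -0.74, SE 0.25, limma adjusted p = 0.172). The Fat2 groups did not overlap either.

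Fat1, the most abundant FAT gene here and known from epithelia and smooth muscle, was at 30.0, 28.0 and 27.9 FPKM in Control and at 27.6, 25.8 and 35.1 FPKM in PBLI. Its groups overlapped and its log2 change was 0.03 (95% interval -0.27 to 0.33, limma adjusted p = 0.922). Without PBLI G5, the highest library, the sign turned (-0.10). Whether the 4 FAT genes differ from each other in their change was not tested.

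**Figure D3:**
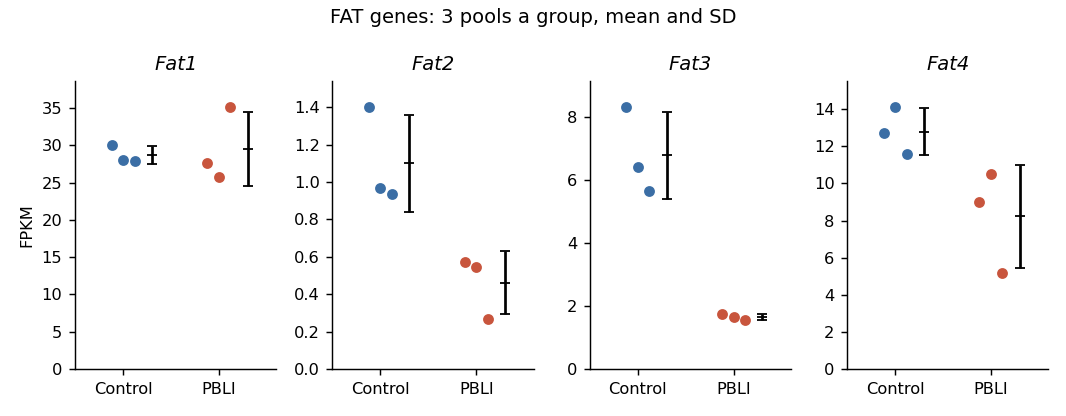
FPKM (y axis, each panel on its own scale from 0) of the 4 FAT genes in the 3 Control and 3 PBLI libraries, with the mean and SD beside the points. The Fat3 points of PBLI sit between 1.55 and 1.74 FPKM, below the lowest Control library at 5.62, while the Fat1 points overlap.

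The Fat3 circles gave few reads. The exon 2 circle was read 2 and 3 times in Control 1 and 2 but not in Control 3, and 4, 1 and 9 times after blast, 5 junction reads against 14 in all. The exon 3 circle had none in Control and 0, 1 and 2 in PBLI. The circRNA totals were 8664 junction reads in Control and 12319 in PBLI, 1.42 times as many. A difference was not detectable at this depth for either circle (edgeR log2 change 1.12 for exon 2, adjusted p = 0.586 for both). The exon 2 value was 0.37 without PBLI G5, 0.50 without Control 3 and 1.81 without Control 2. No member's circle passed, and none of all 3696 circles did (0%, with DESeq2 also 0), while 48 had an unadjusted p under 0.05. The linear Fat3 row, by contrast, was higher in every Control library, and the 2 kinds of reads were not compared by a test. The other 2 circles were one in an intron of Cdh4, with 2 reads in Control 3 alone, and one over Cdh5, with 1, 3 and 0 reads in Control and none in PBLI.

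Among the cadherins outside the protocadherin and FAT families, 11 of 23 were tested, and their median log2 change was -0.10. Chromosome 8 holds 9 of the members, Cdh1, Cdh5 and Cdh11 among them. Cdh11 (chr8:102632095-102785493, minus strand), the type II cadherin of fibroblasts and other mesenchymal cells, was at 44.4, 43.5 and 36.2 FPKM in Control and at 18.6, 20.8 and 11.5 FPKM in PBLI. The groups lay far apart, with the highest PBLI library at 20.8 FPKM and the lowest Control library at 36.2 FPKM. Its mean fell from 41.4 ± 4.52 to 17.0 ± 4.89 FPKM (SD, n = 3 each), a log2 change of -1.30 (SE 0.21, limma adjusted p = 0.0311). The limma adjusted p was 0.122, 0.156 and 0.0678 without Control 1, 2 and 3, 0.0890 without PBLI G3, 0.0672 with no filter and 0.0686 with no trend, and the sign held in each. Of 8 fibroblast markers 3 fell (Col1a2, Col3a1 and Tcf21) and 2 had positive estimates (Dcn and Pdgfra), and their part in the Cdh11 result was not tested.

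Cdh5 (chr8:104101613-104144504, plus strand), which holds endothelial cells together and was the highest member, was at 282, 289 and 265 FPKM in Control and at 233, 245 and 238 FPKM in PBLI. All PBLI libraries lay below all Control libraries, by a small margin, and the change missed the threshold (log2 change -0.22, 95% interval -0.41 to -0.03, limma adjusted p = 0.202). Cdh1 (chr8:106603350-106670247, plus strand), the cadherin of epithelial adherens junctions, was at 73.9, 73.5 and 86.5 FPKM in Control and at 93.1, 87.1 and 167 FPKM in PBLI. It was the only member with every PBLI library above every Control library, although PBLI G4 exceeded Control 3 by little, and PBLI G5 was far above the rest. Its log2 change was 0.51 (SE 0.23, limma adjusted p = 0.288) and was 0.21 without PBLI G5. The sums of the 6 alveolar type 2 markers were 9238 to 10241 FPKM in Control and 12065 to 12972 FPKM in PBLI, lowest of the PBLI libraries in PBLI G5. The median log2 change was 0.26 for these markers, 0.09 for the alveolar type 1 list and -0.24 for the airway epithelium list. The part of epithelial cells in the Cdh1 values was not tested.

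Cdh2 (N-cadherin), a cadherin of mesenchymal and muscle cells, was at 4.73, 5.26 and 3.73 FPKM in Control and at 2.55, 3.10 and 2.02 FPKM in PBLI. The groups did not overlap, with a log2 change of -0.73 (SE 0.21, limma adjusted p = 0.126). Cdh22 was at 0.350 FPKM or more in Control and 0.251 FPKM or less in PBLI, with a limma adjusted p of 0.247. It had passed the filter through Control libraries alone, which favours this direction, so its lack of overlap is no further support. Cdh13 (T-cadherin), which is anchored to the membrane by a lipid and binds adiponectin, was at 10.8, 10.3 and 12.5 FPKM in Control and at 11.5, 11.6 and 16.8 FPKM in PBLI. Its groups overlapped (log2 change 0.22, limma adjusted p = 0.505), and without PBLI G5 the log2 change was 0.05. Cdh16, a cadherin known from kidney, was low, at 0.970 to 2.24 FPKM in Control and 1.51 to 2.30 FPKM in PBLI, with a log2 change of 0.16 that turned to -0.09 without Control 3.

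**Figure D4:**
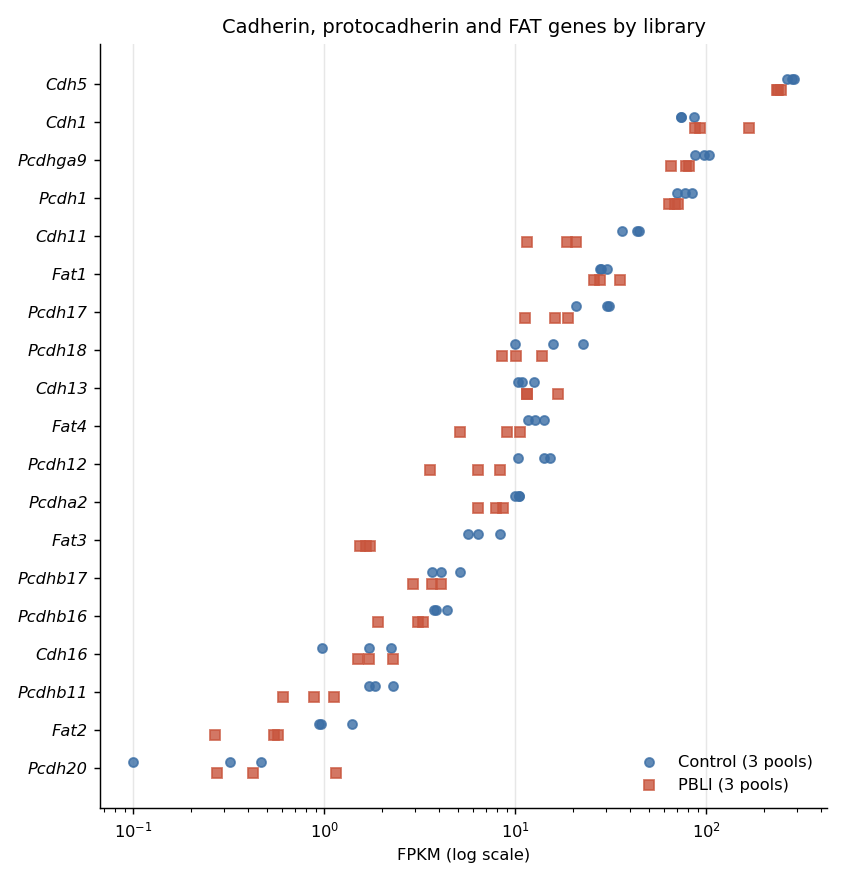
FPKM on a log axis (x) for the members chosen by the naming rule (y, ordered by mean level), with Control libraries as circles and PBLI libraries as squares. Fat3, Cdh11, Pcdh12 and Pcdhb11 show groups that do not overlap, while Fat1, Pcdh18 and Cdh16 overlap.

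Of the 12 protocadherins outside the clusters, 8 were tested, with a median log2 change of -0.18 and none past the adjusted threshold. At an unadjusted limma p under 0.05, 2 of the 8 were lower, where 10% of all genes were. Pcdh12, known as an endothelial protocadherin, was at 15.1, 14.2 and 10.3 FPKM in Control and at 6.39, 8.26 and 3.56 FPKM in PBLI. The groups did not overlap, and PBLI G5 was lowest. Its log2 change of -1.11 (SE 0.29) missed the threshold (limma adjusted p = 0.105) and was -0.80 without PBLI G5. Pcdh17, a protocadherin known from brain circuits, was at 30.9, 30.1 and 20.7 FPKM in Control and at 16.2, 18.8 and 11.3 FPKM in PBLI (log2 change -0.81, SE 0.22, limma adjusted p = 0.117). Here too the groups did not overlap, although Control 3 lay close to PBLI G4.

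Pcdh1, a protocadherin of airway epithelium, was the highest of these genes, at 77.8, 83.7 and 70.3 FPKM in Control and at 63.5, 70.8 and 68.9 FPKM in PBLI. Its groups overlapped and the interval of its log2 change ran from -0.41 to 0.03. Pcdh18 varied widely within Control, at 15.7 and 22.5 FPKM in Control 1 and 2 and 9.997 FPKM in Control 3, against 10.1, 13.8 and 8.54 FPKM in PBLI (limma adjusted p = 0.384). Pcdh20 was low and was highest in PBLI G5 (1.16 FPKM, against 0.468 FPKM or less in the other 5 libraries, limma adjusted p = 0.528).

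The clustered protocadherins lie in 1 region of chromosome 18 and made up 24 of the members. Of the 22 beta genes, each a single exon with 2319 to 2490 coding bases, 21 were tested. All 21 had a negative estimate, from -0.85 to -0.08 on the log2 scale with a median of -0.35, but none passed the adjusted threshold with limma, and 2 did at an unadjusted p under 0.05, where 10% of all genes were lower. In 12 of the 21 every PBLI library lay below every Control library, against 14.4% of all genes. Pcdhb2, among the 12, had passed the filter through Control libraries alone, which favours a lower level in PBLI. The beta genes are near copies of each other, so reads can be split among them, single genes are uncertain and their shared sign does not count 21 times. The summed beta level was 40.1, 34.8 and 34.0 FPKM in Control and 26.3, 29.5 and 22.2 FPKM in PBLI, with no overlap and PBLI G5 lowest.

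Pcdhb17 had the highest beta level, at 5.11, 3.64 and 4.08 FPKM in Control and at 3.67, 4.09 and 2.91 FPKM in PBLI, and its groups overlapped. Pcdhb16 was next, at 4.40, 3.84 and 3.77 FPKM in Control and at 3.10, 3.28 and 1.903 FPKM in PBLI, and its groups did not. Pcdhb11 had the smallest p of the beta genes, at 1.72, 2.29 and 1.84 FPKM in Control and at 0.606, 1.12 and 0.884 FPKM in PBLI (log2 change -0.85, SE 0.23, limma adjusted p = 0.112), with no overlap.

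The alpha and gamma clusters were each represented by 1 row, Pcdha2 and Pcdhga9, whose loci in the table span the whole cluster. Their isoforms share the same last exons, so each row holds reads of several genes and is uncertain as a value of the gene it is named for. Pcdhga9 was the third highest member, at 103, 97.5 and 87.2 FPKM in Control and at 78.6, 81.0 and 65.2 FPKM in PBLI (log2 change -0.36, SE 0.11, limma adjusted p = 0.156). Pcdha2 was at 9.95, 10.5 and 10.4 FPKM in Control and at 7.91, 8.59 and 6.36 FPKM in PBLI (log2 change -0.42, SE 0.14, limma adjusted p = 0.174). Neither row had overlapping groups, and neither passed the threshold.

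The lncRNA table named a member for 57 transcripts, of which 29 were above 0 in a library and 8 were tested. None of the 8 passed with limma (smallest adjusted p = 0.572, none at an unadjusted p under 0.05), where 0.0295% of all 6772 tested transcripts fell and 0% rose. The highest, a transcript that overlaps Pcdh18 exons on the same strand, was at 15.9, 6.59 and 10.4 FPKM in Control and at 7.98, 11.4 and 6.11 FPKM in PBLI, and shares sequence with the gene. A transcript that overlaps Cdh1 exons was at 4.62, 5.12 and 5.65 FPKM in Control and at 3.95, 4.01 and 6.23 FPKM in PBLI. The divergent partner of Pcdh17 had 2 tested isoforms, at 1.22 FPKM or less, and the sign of its change turned in some settings.

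Of the proteins that work with cadherins, the catenins and junction adaptors, which tie cadherins to actin, showed no call among 18 tested genes with limma, although the unadjusted p was under 0.05 for 3 with a higher and 2 with a lower level. Pkp4, an armadillo protein of junctions, was at 41.8, 34.6 and 40.3 FPKM in Control and at 50.8, 49.9 and 51.8 FPKM in PBLI (log2 change 0.39, limma adjusted p = 0.0958). Jup (plakoglobin) was at 122, 115 and 116 FPKM in Control and at 141, 145 and 151 FPKM in PBLI (log2 change 0.31, limma adjusted p = 0.0975). The groups overlapped in neither gene.

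The Dachsous, Celsr and planar polarity list, which holds the partners of the FAT proteins, had no call among 14 tested genes with limma, and 4 were lower at an unadjusted p under 0.05. Dchs1, which binds Fat4, was at 7.16, 6.69 and 4.99 FPKM in Control and at 3.57, 4.32 and 3.94 FPKM in PBLI (log2 change -0.60, limma adjusted p = 0.139). Fzd6, a receptor of planar polarity, was at 13.6 FPKM or more in Control and 11.7 FPKM or less in PBLI (limma adjusted p = 0.116). Among 8 tested relatives of the cadherin superfamily none was called with limma (2 were lower at an unadjusted p under 0.05), and the calsyntenins Clstn1 and Clstn2 had the smallest p (limma adjusted p = 0.159 and 0.260).

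Of 8 tested repressors of cadherin genes 1 fell, and at an unadjusted p under 0.05 there were 3 lower and 1 higher. Snai2 (Slug), a zinc finger repressor of Cdh1, was at 13.6, 13.7 and 14.5 FPKM in Control and at 4.90, 6.74 and 4.55 FPKM in PBLI. Its log2 change was -1.31 (SE 0.16, limma adjusted p = 0.0152), with no overlap. Without Control 1, 2 or 3 or PBLI G3 the limma adjusted p was 0.0651, 0.0929, 0.0512 and 0.0754.

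None of 11 proteases that cleave cadherins was called by limma (2 were higher at an unadjusted p under 0.05), and Adam15 was at 21.2 to 28.5 FPKM in Control and at 33.6, 39.1 and 51.3 FPKM in PBLI (log2 change 0.71, limma adjusted p = 0.0956). Psenen, a subunit of gamma-secretase, had a limma adjusted p of 0.192. Of 16 partners of Cdh5 none was called with limma (the unadjusted p was under 0.05 for 1 with a higher and 3 with a lower level). Fyn, a kinase, had the smallest p, with a log2 change of -0.37 (limma adjusted p = 0.115). Kdr, the VEGF receptor that binds Cdh5, was at 137, 125 and 122 FPKM in Control and at 94.9, 107 and 63.8 FPKM in PBLI (limma adjusted p = 0.164). Of 14 regulators of the protocadherin clusters, such as CTCF and cohesin, none was called by limma (2 were lower at an unadjusted p under 0.05, Smchd1 and Dnmt3a). Over all genes, 10% were lower and 9.15% higher at an unadjusted limma p under 0.05. The median log2 changes of these 7 lists of partners and regulators ran from -0.14 to 0.09. The sign of the median turned on leaving out 1 library in 4 of them, the catenins, the superfamily relatives, the partners of Cdh5 and the cluster regulators. With 1 library left out, each list had 0 to 3 genes higher and 0 to 4 lower at an unadjusted p under 0.05.

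Markers of several cell types moved with the groups. Over all genes tested with limma, 0.928% fell and 1.15% rose at an adjusted p under 0.05. At an unadjusted p under 0.05, 10% were lower and 9.15% higher, and the counts of the lists are to be read beside these shares. Of 8 fibroblast markers 3 fell, with summed levels of 761 to 957 FPKM in Control and 550.3 to 613 FPKM in PBLI. At an unadjusted p under 0.05, 6 were lower and 1 was higher, Pdgfra, a growth factor receptor of fibroblasts (log2 change 0.48, limma adjusted p = 0.0815). Tcf21, a fibroblast transcription factor, was at 30.8, 40.7 and 37.6 FPKM in Control and at 18.8, 17.0 and 19.0 FPKM in PBLI (log2 change -0.96, limma adjusted p = 0.0163). The collagen genes Col1a2 and Col3a1 fell by 0.85 and 1.08 on the log2 scale (limma adjusted p = 0.0283 and 0.0379). Without Control 2 the limma adjusted p was 0.0929 for Tcf21, 0.151 for Col1a2 and 0.182 for Col3a1, the largest values with 1 library left out. The calls were also lost without PBLI G3 or PBLI G4, without Control 1 for both collagens and without Control 3 for Tcf21 (limma adjusted p from 0.0527 to 0.132). With no filter and with no trend it was 0.0565 and 0.0701 for Col1a2 and 0.0800 and 0.0820 for Col3a1. Of 10 endothelium markers 1 fell, Emcn (log2 change -1.16, limma adjusted p = 0.0162, and 0.0664, 0.0898 and 0.0763 without Control 1, Control 2 and PBLI G3), while the summed level overlapped at 2011 to 2174 FPKM in Control and 1741 to 2201 FPKM in PBLI. The median log2 change of these markers was -0.17, and 8 of the 10 had negative estimates. At an unadjusted limma p under 0.05, 3 were lower and 0 higher, and 1 was lower without Control 1.

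The 6 neutrophil markers summed to 164 to 276 FPKM in Control and 366 to 2238 FPKM in PBLI, lowest in PBLI G5, and all 6 were higher at an unadjusted p under 0.05. Mmp8, a neutrophil collagenase, alone passed the adjusted test (log2 change 3.09, limma adjusted p = 0.0418). Its limma adjusted p was 0.0942 with no filter, 0.0796 with no trend and 0.00261 to 0.195 with 1 library left out, under 0.05 only without PBLI G5, and the log2 change then ran from 2.61 to 3.81. Of 3 tested mesothelium markers Upk3b rose, from 0.0473 FPKM or less in Control to 0.726 FPKM or more in PBLI (limma adjusted p = 0.0406). That call was lost whichever library was left out (limma adjusted p from 0.0585 to 0.182), with a pseudocount of 1 (0.0555) and with a filter of 1 FPKM (0.0583). Upk3b had passed the filter through PBLI libraries alone, which favours this direction, so its lack of overlap is no further support. The 8 lymphocyte and 6 proliferation markers all had negative estimates (medians -0.72 and -1.14) with no call by limma (6 and 2 at an unadjusted p under 0.05). Control 1 stood apart in the proliferation markers, with a summed level of 113 FPKM against 23.2 and 18.6 FPKM in Control 2 and 3 and 13.0 to 18.5 FPKM in PBLI, and without it their median was -0.34. Without PBLI G5, 7 of the 8 lymphocyte markers had negative estimates. The lymphocyte markers lower at an unadjusted p under 0.05 numbered 1 without Control 2 or Control 3 and 3 without Control 1 or PBLI G5. The lists for alveolar type 1 and type 2 cells, airway epithelium, smooth muscle and pericytes, Schwann cells, cardiomyocytes, adipocytes, macrophages and erythroid cells had no limma call. Among them, 8 markers had an unadjusted limma p under 0.05, where 10% of all genes were lower and 9.15% higher. In the alveolar type 1, adipocyte and macrophage lists 1 each was higher, of 6, 4 and 6 tested. In the airway epithelium list 2 of 7 were lower and in the erythroid list 1 of 5. Of 4 tested Schwann cell markers 1 was higher and 1 lower, and the other lists had none. The part of cell composition in the values of the members was not tested.

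**Figure D5:**
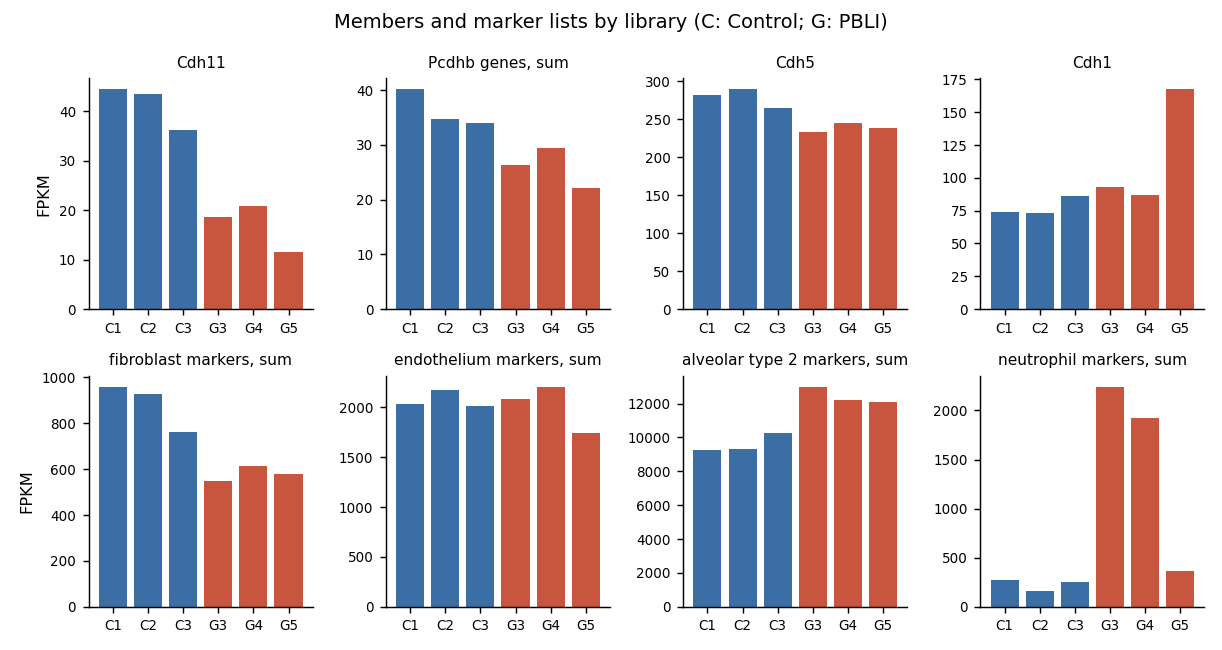
FPKM (y axes, from 0) in the 3 Control libraries (C1 to C3) and the 3 PBLI libraries (G3 to G5) of Cdh11, the summed beta protocadherins, Cdh5 and Cdh1 (top) and of 4 summed marker lists (bottom). Cdh11 and the fibroblast markers are lower in every PBLI library, the endothelium markers overlap, and PBLI G5 has the highest Cdh1 and the lowest neutrophil sum of the PBLI libraries.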

How the data were processed

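Per the labels and the methods of the study, rRNA-depleted stranded libraries of 6 lung pools were read as 150-base pairs. The authors deposited mRNA FPKM values per gene from hisat2 2.0.4 and cuffdiff 2.2.1 on mm10 (the GRCm38 build), lncRNA FPKM values per transcript, whose tool the sources do not state, and circRNA counts of junction reads from STAR 2.5.1b and DCC 0.4.4. Reads were trimmed with cutadapt 1.9.3, and the submitters' processing notes also name CASAVA 1.8. The use of strand in counting was not stated, so overlapping and antisense transcripts are uncertain.

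The members and lists were chosen with earlier results of these data known. FPKM were tested with limma 3.58.1 (R 4.3.3) on log2(FPKM + 0.5), with trend, over the genes that reached 0.5 FPKM in any library, with Benjamini-Hochberg adjustment over all of them and a threshold of 0.05. This scale understates changes of low genes. The study used cuffdiff for this comparison. circRNA counts were tested with edgeR 4.0.16 (quasi-likelihood, TMM). The alternatives were pseudocounts of 0.1 and 1, no filter and a filter of 1 FPKM, TMM and median-of-ratios scaling, no trend, each library left out and, for circRNAs, RLE factors, DESeq2 1.42.0 and a minimum of 10 reads. The main limma fits of mRNA and lncRNA and the main edgeR fit of circRNAs were first run on simulated data with known changes. For circRNAs these changes were placed only in circles of at least 10 reads. The alternatives were not simulated. The p-values measure the spread between pools. The depth of the FPKM values was read only as a relative value, because the count columns were not used.

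The named members were all those called, Fat1 to Fat4, the 12 with the highest mean FPKM, the 4 per direction with the smallest p and the top 2 of each protocadherin cluster. Of each list, the called genes or, without any, the 2 with the smallest p were eligible. Cdh2, Cdh8, Cdh9, Cdh19, Cdh22, Cdh24, Cdh26, Pcdh8, Pcdhb2, Dcn and Pdgfra fall outside this rule and were chosen after their values were seen. Cdh4, also outside it, is named as the host of a circle. All 63 members matched a RefSeq gene. The 18 other per-sample columns (circRNA logCPM, mRNA and lncRNA counts) were not used, nor were the authors' fold changes and p-values.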

Additional observations from a re-analysis of the deposited data

How the results depend on the processing

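No paired analysis was possible because the PBLI columns carry no sample number that could be matched to a Control sample. The study divided the mice between the groups at random and describes no pairs of Control and PBLI pools. No pairing is therefore known to have existed, and the groups were compared as unpaired. Fat3 and Cdh11 stayed lower in PBLI in every setting. The genes that rose numbered 170 and those that fell 137, against 106 and 68 with no filter and 70 and 59 with no trend. The falls among members numbered 1 with no filter and 1 with no trend (Fat3 in both). At the study's thresholds 6 members fell with a pseudocount of 0.1 and 6 with the plain FPKM ratio, an alternative chosen after seeing the data, against 3. The median log2 change of the members was -0.22 with no filter, which adds genes near 0. The cause of the other differences was not tested.

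With 1 library left out, 5 to 311 genes rose and 0 to 188 fell, fewest without Control 2 and most without PBLI G5. Members that fell numbered 0 to 2, members that rose 0, and members that fell at the study's thresholds 2 to 3, with medians of -0.38 to -0.26. circRNAs called numbered 0 to 1. Called lncRNAs numbered 0 to 2 upward and 1 to 4 downward, and 5 fell with a pseudocount of 0.1 and 8 with no filter. With 1 library left out, the log2 change ran from -0.10 to 0.12 for Fat1, from -0.085 to 0.36 for Cdh16, from -0.64 to 0.25 and from -0.032 to 0.49 for the isoforms of the Pcdh17 partner and from -0.076 to 0.34 for a Cdh13 transcript. A pseudocount of 0.1 turned the first of these isoforms to 0.12. TMM and median-of-ratios scaling moved the median of all genes by less than 0.1 on the log2 scale and changed no member's call. Depth limits the circRNAs, at 2513 to 4733 junction reads per library, and members under 0.5 FPKM.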
